A study of Drosophila melanogaster with 3 samples.

Results

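The 10 genes described here encode subunits of the Brahma chromatin remodeler (brm, mor, osa, Snr1, Bap60, Bap55, Bap111 and Bap170) and 2 further Trithorax group proteins, kis and ash1, in Drosophila melanogaster. They were chosen by name, and all 10 were found among the 13945 protein-coding genes on the main chromosome arms. The question was where the peaks of CG6254, a zinc finger protein, lay at these genes. Peaks came from chromatin immunoprecipitation and sequencing in whole embryos of mixed sex aged 0 to 14 h, from a line in which CG6254 carries green fluorescent protein (GFP) at its C-terminus, by which it was precipitated. The samples form 1 group of 3 replicates that the labels call biological, with no second condition. Whole embryos mix all cell types, so a peak cannot be placed in a cell type. A peak is described by its interval on the dm6 build, its summit, its width, its rank by signal and the signal itself, which is the authors' value on a scale that is not stated and which ranks peaks only within 1 list. The authors' irreproducible discovery rate (IDR) list, which keeps peaks by how alike the replicates rank them, held 4426 peaks with a median signal of 228.739 (range 147.508 to 15458.9). Those were the 4426 strongest of 30000 peaks called on the pooled replicates. The lists hold no read counts, so the depth of each replicate is unknown, no error can be given for a pooled signal, and the replicate lists show the spread instead.

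The Brahma complex uses the energy of ATP to slide or evict nucleosomes, and in flies it counters Polycomb silencing of the homeotic genes. Its shared core is joined either by Osa, giving the form called BAP, or by Bap170 and Polybromo, giving PBAP. Trithorax group proteins as a whole keep developmental genes active through cell division, by remodeling nucleosomes or by modifying histones.

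CG6254 summits lay at 5 of the 10 genes. A transcription start site (TSS) with a summit within 500 bp was present at 4 of 10 members (40%), namely mor, brm, Bap60 and kis, against 14.8% of all protein-coding genes. With summits anywhere in the gene body included, osa joined them and 5 of 10 members (50%) had a summit, against 19.9% of all protein-coding genes. Snr1, Bap55, Bap111, Bap170 and ash1 had none. The 5 genes held 8 IDR summits, of which 1 each fell to mor, brm and Bap60, 2 to osa and 3 to kis. No test was made, because 10 genes chosen with earlier results known are a description. Another rule kept only the IDR peaks matched within 200 bp by the strongest 4426 peaks of both of 2 replicates. The promoter count was then 2 (brm and mor, against 9.42% of all protein-coding genes) with replicates 1 and 3. There Bap60 had no match in replicate 1 and the kis promoter summit none in replicate 3. The promoter count was 3 (against 9.66%) with replicates 2 and 3, and 3 (against 10.9%) with replicates 1 and 2. It was also 2 under 4 stricter rules: summits within 200 bp of a TSS (against 9.91% of genes), a TSS inside the peak interval (9.04%), the stronger 2213 IDR peaks (8.28%), and each summit counted only for its nearest TSS (11.2%). In the strongest 4426 peaks of replicate 1 alone, 4 members had a promoter summit (Bap55, brm, kis and mor), against 16.4% of all protein-coding genes. Replicate 2 alone gave 4 members (Bap60, brm, kis and mor), against 16.0% of genes, and replicate 3 alone gave 3 members (Bap60, brm and mor), against 12.6%. Only brm and mor had a promoter summit in each replicate taken alone.

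**Figure D1:**
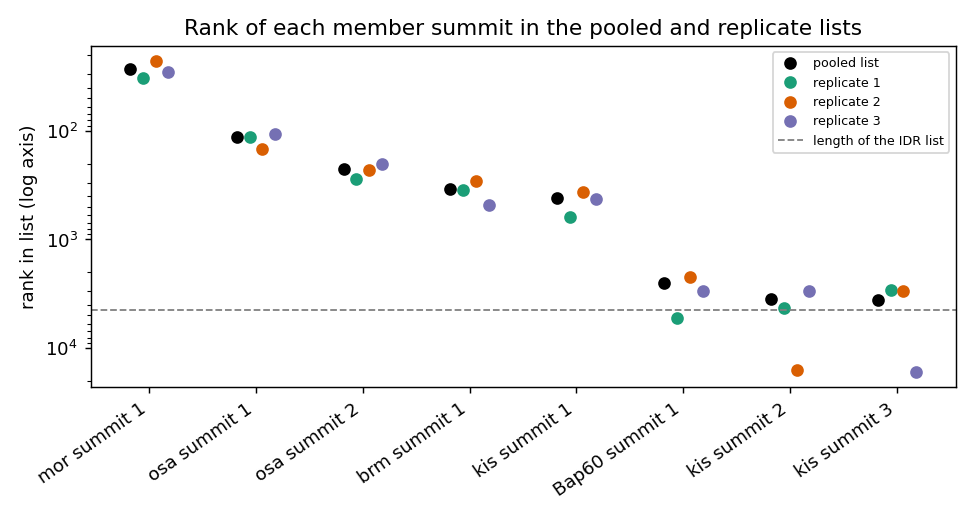
Rank by signal (vertical axis, log scale, strongest at the top) of the 8 member summits in the pooled list and in the list of each replicate, with each point standing for the nearest summit within 200 bp. The dashed line marks rank 4426, the length of the IDR list. The 5 summits on the left rank between 23 and 615 in every list, and each of the 3 on the right falls past the dashed line in 1 replicate.

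The strongest summit belonged to mor (FBgn0002783, chromosome arm 3R, 15968134 to 15972913, minus strand), which encodes Moira, the SWIRM and SANT domain scaffold of the complex core. Its peak (15972085 to 15973229) ranked 27 of 4426 with a signal of 4950.99, in the intron 454 bp downstream of the TSS, and no other gene had a TSS within 500 bp of the summit. The rank was 33 in replicate 1, 23 in replicate 2 and 29 in replicate 3. The replicate signals were 1345.85, 2073.82 and 1526.9, which are 21.2, 21.6 and 18.5 times the median of the strongest 4426 peaks of the same replicate. The replicates therefore placed mor at nearly the same height within their own lists. The interval was 1145 bp wide, and 6 of the 4426 IDR intervals, mor included, were at least that wide. In each replicate the interval also held a weaker summit nearer the TSS, at 15972690 in replicate 1 and 15972693 in the others, which is 223, 220 and 220 bp downstream of the TSS. That summit ranked 314, 1343 and 475, with signals of 175.294, 125.941 and 212.405. The main summit with 50 bp on each side (chr3R:15972409-15972509, plus strand of dm6, RefSeq) is shown because this window holds an 8-base element, in capitals. That element was picked at the strongest CG6254 peaks for its excess over windows beside them.
mor: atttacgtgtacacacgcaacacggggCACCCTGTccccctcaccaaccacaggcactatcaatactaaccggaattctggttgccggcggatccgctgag

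**Figure D2:**
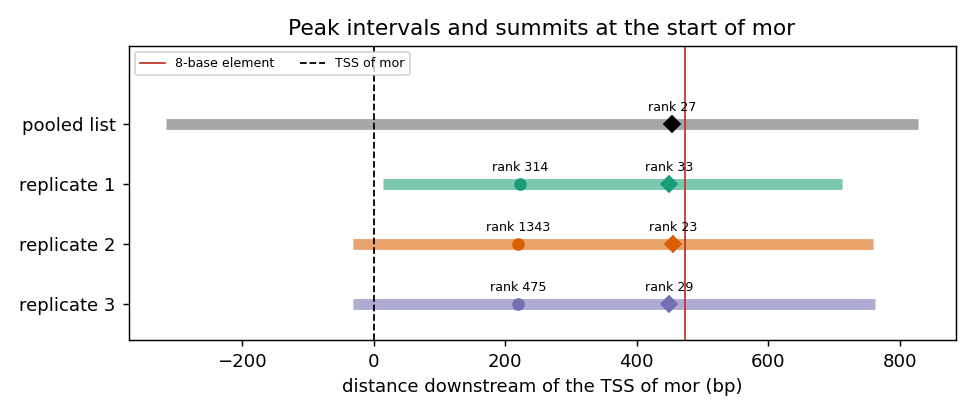
Peak intervals (bars) and summits (points, with their ranks) near the start of mor in the pooled list and in the 3 replicate lists, against distance downstream of the TSS in bp. Diamonds mark the strongest summit of each list, circles the weaker one, and the vertical red line the 8-base element at 473 bp, which lies beside all 4 strongest summits.

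The element reads CACCCTGT, or ACAGGGTG on the other strand. It was picked after the data were seen, from the summits of the strongest 442 IDR peaks with the member peaks left out. Of all 8-mers, its count of windows within 50 bp of these summits most exceeded its count of flanks. Flanks are windows of the same length 350 bp away. The element was in 75 of 437 such summit windows (17.2%) and in 0 of their flanks, a difference that the choice itself favours. Over all IDR summits 142 of 4426 windows (3.21%) held it, and 0.0678% of flanks. At mor the match lies at 15972436 to 15972443 on arm 3R, 473 bp downstream of the TSS. It is 19 bp from the pooled summit, and 24, 18 and 23 bp from the summits of replicates 1, 2 and 3. Of the 8 member summits, mor alone had the element, also with 25 or 100 bp on each side and in the whole peak interval. The same search listed 10 top 8-mers, with this element first. The windows of mor, brm and the second osa summit held 2 of these each, and the other member windows 0. The bodies of the members held 2 other matches to CACCCTGT, both in coding exons of osa. They span 17692892 to 17692899 and 17698410 to 17698417. These lie 7663 and 2145 bp from the nearest IDR summit, and no summit of any list lay within 200 bp of either. Most copies in the genome also lay away from IDR summits. Of 2109 matches on the main arms, 186 (8.82%) lay within 200 bp of an IDR summit. With any summit of the pooled list, 421 of the 2109 did. Genome-wide matches near replicate summits were not counted.

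**Figure D3:**
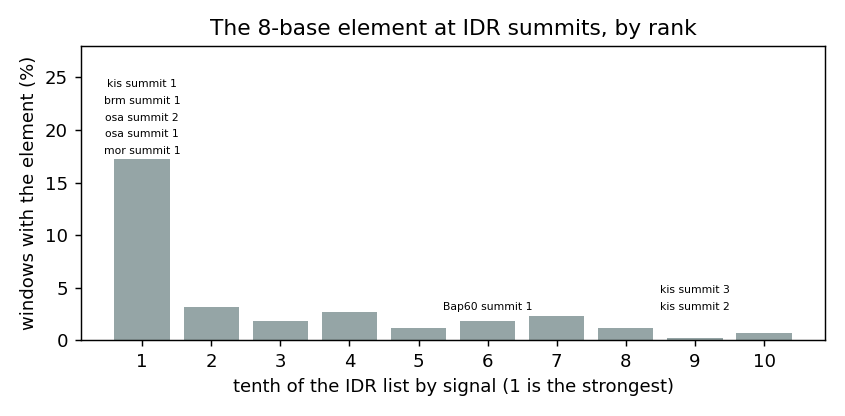
Share of summit windows (50 bp on each side) holding the 8-base element on either strand (bars, percent) for 10 classes of about equal size of the IDR list by rank, from the strongest (1) to the weakest (10), with the member summits written above the class they fall in. The share is 17.2% in class 1 and between 0.226% and 3.16% in the others. The element was picked in class 1 with the member peaks left out, so the choice itself raises the share there. In class 1 fall 5 member summits, although mor alone has the element.

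The promoter of brm (FBgn0000212, arm 3L, 15970082 to 15982869, minus strand), which encodes the ATPase that drives the complex, had a summit 140 bp upstream of the TSS. The peak (15982891 to 15983130, 240 bp) ranked 343 with a signal of 643.22. Its rank was 347 in replicate 1, 292 in replicate 2 and 483 in replicate 3, with signals of 168.392, 265.045 and 210.663, or 2.65, 2.76 and 2.55 times the list median. The replicates thus gave brm a similar height, well below that of mor. The summit lies between brm and Arl1 (FBgn0000115, plus strand), which encodes an Arf-like GTPase of the Golgi and starts 266 bp from brm. It is 126 bp upstream of the Arl1 TSS and so nearer to Arl1 than to brm, and the lists cannot assign it to either gene. A weaker summit 5043 bp downstream of the brm TSS, in an intron, was in the pooled list at rank 6627 and in the replicates at ranks 10091, 6439 and 11340, and did not enter the IDR list. The promoter summit with 50 bp on each side (chr3L:15982959-15983059, plus strand) is shown for its base composition, with a match to TATAAA on the minus strand in capitals.
brm: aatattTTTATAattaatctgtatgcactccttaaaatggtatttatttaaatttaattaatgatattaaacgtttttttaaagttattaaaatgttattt

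Bap60 (FBgn0025463, X chromosome, 13157445 to 13159508, minus strand) encodes the core subunit related to mammalian BAF60. Its peak (13159520 to 13159935) ranked 2542 with a signal of 210.038, which is below the IDR median, and the summit lay 220 bp upstream of the TSS. Replicate ranks were 5316, 2198 and 2959 and signals 39.7725, 96.565 and 68.4529, so replicate 1 did not place it among its strongest 4426 peaks. The signals were 0.627, 1.0 and 0.827 times the list medians. The summit is also 86 bp from the nearest TSS of CG12096 (FBgn0030457, plus strand) and within a 5' untranslated region of another transcript of that gene, so it too is shared. It is the member summit with a match to CGATA, the core of the DREF binding element, and 30 bases around it (chrX:13159714-13159743, plus strand) are shown with the match, on the minus strand, in capitals.
Bap60: tgctacTATCGatcgaaaacattggtttgc

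Both summits of osa (FBgn0261885, arm 3R, 17687818 to 17718350, minus strand), which encodes the ARID domain subunit that defines the BAP form, were deep in its introns and none was at its promoter. The first (17704242 to 17704546) lay 13959 bp downstream of the TSS and ranked 114 with a signal of 1197.37. Its replicate ranks were 114, 148 and 106, with signals of 315.13, 403.434 and 481.783. The second (17700414 to 17700728) lay 17791 bp downstream and ranked 223 with a signal of 822.804. Its replicate ranks were 275, 230 and 201, with signals of 189.013, 306.37 and 331.846. Every list thus held both at rank 275 or better, which puts osa next to mor among the members. Each summit is close to a gene for a long non-coding RNA transcribed against osa. The first lies in an exon of lncRNA:CR46035 (FBgn0267702), 696 bp downstream of its TSS, and the second 182 bp upstream of the TSS of lncRNA:CR46036 (FBgn0267703). Of 663 genes at least 30 kb long, 371 (56.0%) had an IDR summit at a TSS or in the body and 253 (38.2%) had 2 or more, so a summit in a gene as long as osa is common. The pooled list held 11 further summits in osa, at ranks from 9005 to 26252. Within 500 bp of the osa TSS the pooled list held none, and each replicate held weaker ones far below its strongest 4426. Replicate 1 had them at rank 9793 (491 bp upstream) and rank 10474 (105 bp downstream), replicate 2 at rank 15729 (102 bp downstream) and replicate 3 at rank 7751 (387 bp upstream), so within 200 bp replicate 1 was matched by replicate 2 downstream and by replicate 3 upstream of the TSS. The first summit with 50 bp on each side (chr3R:17704341-17704441, plus strand) is shown with a match to TATAAA in capitals.
osa summit 1: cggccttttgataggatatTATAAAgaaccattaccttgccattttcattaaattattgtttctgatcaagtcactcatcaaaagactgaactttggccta

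The 3 summits of kis (FBgn0266557, arm 2L, 210735 to 250823, minus strand), which encodes Kismet, an ATPase of the CHD family that counters Polycomb repression, differed widely in strength. The gene has an outer TSS at 250823 with 5 annotated transcripts and an inner TSS at 221962 with 1. The first summit (223425 to 223647) lay in an intron 1583 bp upstream of the inner TSS and ranked 418 with a signal of 585.783. Its replicate ranks were 615, 363 and 428, and its signals 125.333, 238.475 and 222.973. This summit is 26 bp downstream of the TSS of lncRNA:CR44222 (FBgn0265153, plus strand), which is far closer than either TSS of kis. The second (247711 to 248126), in an intron 2904 bp downstream of the outer TSS, ranked 3547 with a signal of 170.495. Its replicate ranks were 4282, 15846 and 2965, with signals of 44.7837, 32.8372 and 68.3407. The third (221900 to 222315), 146 bp upstream of the inner TSS, ranked 3583 with a signal of 169.361. Its replicate ranks were 2940, 2969 and 16548, with signals of 54.5447, 82.3878 and 23.7444. The promoter call of kis therefore rests on a weak summit at the TSS with 1 transcript, which replicate 3 ranked far below its strongest 4426 peaks. At the outer TSS the pooled list had a summit 196 bp upstream at rank 8516, and replicate 2 one 184 bp upstream at rank 4064. Replicate 1 had one 6 bp downstream at rank 4811 and one 200 bp upstream at rank 27834. Replicate 3 and the IDR list had no summit within 500 bp of the outer TSS. Among genes at least 30 kb long, 176 (26.5%) had 3 or more IDR summits. Per 10 kb of gene body mor held 2.09, kis 0.748 and osa 0.655 summits and every other member 0, against 0.302 over all protein-coding genes. The mor value rests on 1 summit, also counted at its promoter, in a gene of 4780 bp. The strongest summit with 50 bp on each side (chr2L:223495-223595) and the promoter summit (chr2L:222058-222158), both on the plus strand, are shown with matches to TATAAA in the former and GAGAG in the latter in capitals, and the latter was added after its matches were seen.
kis summit 1: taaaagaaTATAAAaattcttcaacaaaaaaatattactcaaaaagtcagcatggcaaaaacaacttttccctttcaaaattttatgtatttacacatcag
kis summit 3: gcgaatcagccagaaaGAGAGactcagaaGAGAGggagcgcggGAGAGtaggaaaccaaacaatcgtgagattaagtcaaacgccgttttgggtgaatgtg

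**Figure D4:**
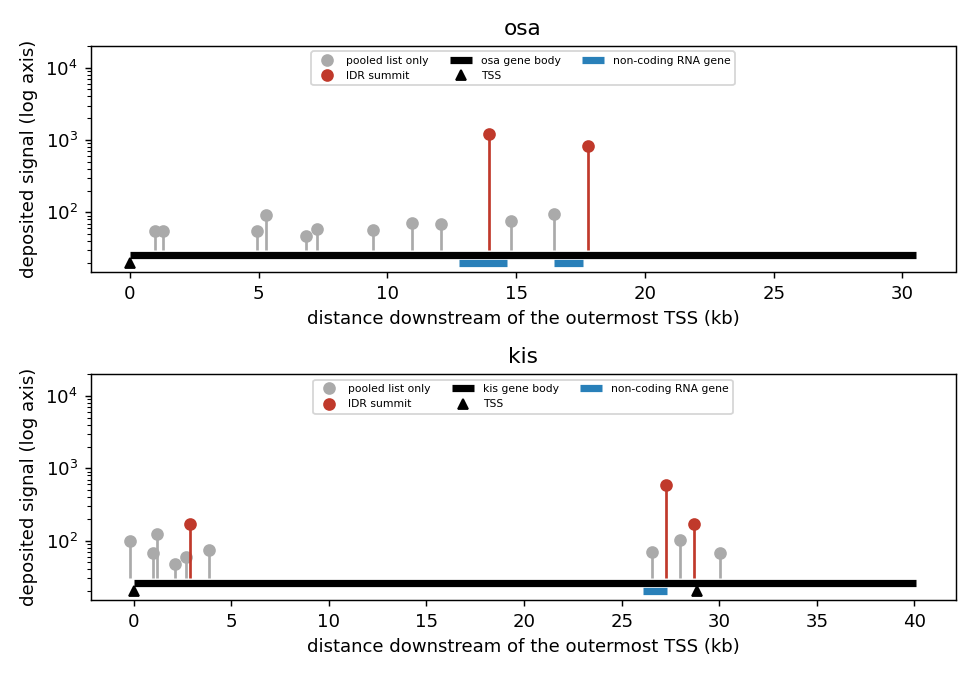
Summits along osa (top) and kis (bottom) in the pooled list, with the deposited signal on a log axis against distance downstream of the outermost TSS in kb. Red points are IDR summits and grey points are in the pooled list alone, the black bar is the gene and triangles are TSSs. Blue bars are the non-coding RNA genes at these IDR summits, and no others were drawn. The 2 IDR summits of osa and the strongest of kis, at signals of 1197.37, 822.804 and 585.783, stand above the others. That they lie at or beside a blue bar follows from how the bars were chosen.

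Across the 8 summits, the stronger ones stayed within the strongest 4426 peaks of every replicate and the weaker ones did not. Weaker summits lie nearer to that cutoff and pass it more easily, so part of this follows from the rule. The 5 summits of mor, osa, brm and the first of kis were matched within 200 bp by the strongest 4426 peaks of every replicate, and those of Bap60 and the others of kis missed in 1 replicate each. All 8 had a counterpart somewhere in each relaxed list of 30000 peaks, which mix binding with background. The IDR list was made from these replicates, so this describes the spread and is no independent check. The 5 strong peaks had widths of their own, between 223 and 1145 bp, while the 3 weak ones were 416 bp wide, the width of 75.6% of IDR peaks but of 1.36% of the strongest 442.

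Letters at the summits differed among the members. GC content within 50 bp of the summit was 56.4% at mor, above the 95th percentile of IDR windows (54.5%), and 13.9% at brm and 16.8% at the second osa summit, below the 5th percentile (20.8%). The other windows lay between 23.8% and 49.5%, around the IDR median of 32.7%. Among windows with the 8-base element 16.9% had at least the GC content of mor, against 3.46% of all IDR windows. Matches to 6 short motifs were counted on both strands. TATAAA, the TATA box core, was in 4 of the 8 windows (brm, both of osa and the first of kis) and in 22.0% of IDR windows. GAGAG, bound by the GAGA factor, had 3 matches at the kis promoter summit and was in 12.2% of IDR windows. CGATA was at Bap60 and in 12.7% of IDR windows, and since it lies within TATCGATA, matches to the longer form count for both. TATCGATA, GGTCACAC and CAGCTG, in 0.904%, 0.813% and 3.43% of IDR windows, had no match at the members. A match is a description of the letters, and its part in binding was not tested.

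Of the 5 members with no IDR summit, 4 had weak peaks in the relaxed lists, and at none of them did all 3 replicates share a site. Snr1 (FBgn0011715, arm 3R, 5470926 to 5472754), the SNF5-related core subunit, had none in the pooled list or in replicates 1 and 3, and 1 promoter summit in replicate 2 at rank 14940 with a signal of 34.0205. Bap55 (FBgn0025716, arm 2R, 17429353 to 17430963), the actin-related subunit, came nearest to a call, with a promoter summit at rank 12598 in the pooled list (111 bp upstream of the TSS), 4084 in replicate 1 (39 bp upstream) and 8465 in replicate 2 (112 bp upstream), and none in replicate 3. Its signals were 76.5134, 46.0658 and 47.3041, and replicate 1 alone would have called it. Bap111 (FBgn0030093, X chromosome, 9149309 to 9151976), the HMG box subunit, had a promoter summit at rank 29663 in the pooled list (261 bp upstream of the TSS) and at rank 15424 in replicate 2 (276 bp upstream), which also had one at rank 28251 (399 bp downstream). Replicate 1 had a summit at another site, in the 3' untranslated region 2491 bp downstream of the TSS, at rank 20590, and replicate 3 had none. Bap170 (FBgn0042085, arm 2R, 6636512 to 6642358), the ARID domain subunit of the PBAP form, had no summit in the pooled list. Replicates 1 and 2 had one at ranks 24211 and 29565, 390 and 458 bp downstream of the TSS, and replicate 3 one at rank 18414, 112 bp upstream. Bap170 thus had no IDR peak where osa had 2 of the strong ones, but Bap170 is 5847 bp long and osa 30533 bp, and the difference was not tested.

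The IDR summits nearest to these genes lay outside them, each within 500 bp of a TSS of another gene. The nearest to ash1 (FBgn0005386, arm 3L, 19590773 to 19598755, minus strand), which encodes a histone methyltransferase acting on lysine 36 of histone H3, is among the strong ones: it ranked 68 with a signal of 2081.93. Its peak (19590451 to 19590781) reaches the end of the gene, but the summit lies 151 bp past the 3' end and 98 bp upstream of the TSS of CG14100 (FBgn0036889), a gene on the same strand. In ash1 itself none of the 4 lists held a summit. The nearest summit to Snr1 was 3826 bp before its 5' end, 1 bp from the TSS of RpL35A, a ribosomal protein gene, at rank 1814. That of Bap55 was 1480 bp past its 3' end, 78 bp downstream of the TSS of Mtap and 362 bp upstream of that of CG6550, at rank 1293. That of Bap111 was 3268 bp past its 3' end, at the histone variant gene His3.3B, at rank 2013, and that of Bap170 was 3134 bp past its 3' end, 394 bp upstream of Fmo-2, at rank 2611.

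Genes of related complexes were counted the same way, as description. Of 44 other remodeler and Trithorax genes, 15 (34.1%) had a promoter summit and 19 (43.2%) a summit at the promoter or in the body. The highest promoter signals were those of pont, an AAA ATPase of INO80-type complexes (414.615, rank 842, shared with Sirt6), Ino80, the ATPase of the complex of that name (335.045, rank 1224, shared with Aptx), Trl, which encodes the GAGA factor (313.848, rank 1349), and MEP-1, a zinc finger partner of Mi-2 (311.906, rank 1365). None of these reached the signal of brm or mor. Of 20 Polycomb group genes, whose products oppose the Trithorax group, 5 (25%) had a promoter summit and 6 (30%) any. They were led by ph-p, a subunit of Polycomb repressive complex 1 (1339.9, rank 100), and E(z), the methyltransferase of lysine 27 of histone H3 (522.336, rank 532, shared with Cnep1r2), followed by jing (201.206, rank 2736) and Sfmbt (174.969, rank 3423, shared with CG5439). Of 15 genes of the COMPASS histone methyltransferases, 4 (26.7%) had a promoter summit and 5 (33.3%) any. Among them Ptip, an adaptor of the Trr complex, had the strongest peak of the whole IDR list (15458.9, rank 1), and the others were Utx, a histone demethylase (311.219, rank 1370), Mnn1, the fly menin (213.819, rank 2477), and Rbbp5 (179.059, rank 3294, shared with eRF1). The COMPASS and Trithorax lists share some genes. The members' promoter share of 40% stands above the promoter share of each of these lists, but 1 gene of 10 is worth 10 percentage points, and no test of the difference was made.

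**Figure D5:**
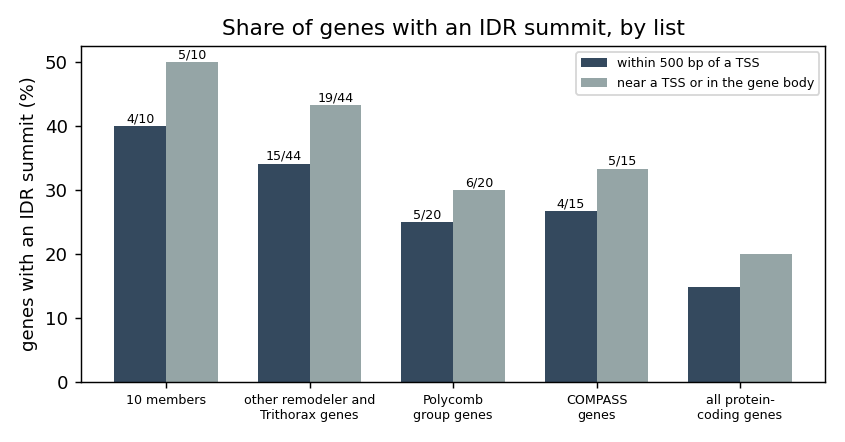
Percentage of genes with an IDR summit within 500 bp of a TSS (dark bars) and at the TSS or in the gene body (light bars) in the member list, in 3 lists of related genes and over all protein-coding genes, with counts above the bars. The member bars are at 40% and 50%, and those of all protein-coding genes at 14.8% and 19.9%.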

How the data were processed

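Peak lists from 3 biological replicates of GFP-tagged CG6254 embryos were used. Per the file headers and their readme texts, the authors called each replicate, and the replicates pooled, against 1 shared control alignment, and derived the IDR list from these. Errors in that control recur in every list, and no control sample was analysed here. Each deposited peak has a signal from the authors' caller, with no stated scale. Not given in the sources used here are the aligner, the caller, their versions, read filters, depth and the IDR threshold. Lists on the dm3 build were not used.

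Genes came from Ensembl release 115 and sequence from RefSeq, both of the dm6 assembly. A summit counted for a gene within 500 bp of any of its TSSs or inside its body, and could count for several genes. Replicate summits were matched within 200 bp. No p-value was computed: the groups are lists of genes in 1 condition, and peaks are not replicates. Members, gene lists and alternatives were chosen with earlier results of these data known. Named were all members with every IDR summit, or with their best relaxed summit where they had none, genes at those summits, and the 4 promoter signals that were highest in each related list. Nearest summits of members with none, the 8-base element and its windows were added after the data were seen. The entries BRD7-9 and calypso had no match by symbol or synonym. Assignment, matching and the 8-mer search were tested on simulated data. Alternatives are given in the closing section. Python 3.11.15, pandas 2.3.3, numpy 2.4.6 and matplotlib 3.10.9 were used.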

Additional observations from a re-analysis of the deposited data

How the results depend on the processing

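Of 36 alternatives, 29 left the count within 1.5 times its value in the report and 7 did not. The promoter count of 4 members was 2 with a window of 200 bp (brm and kis), 2 with the TSS required inside the interval (kis and mor), 2 in the stronger 2213 IDR peaks (brm and mor), and 2 when each summit counted only for its nearest TSS (kis and mor), which passes the shared summits to Arl1 and CG12096. Leaving out 1 replicate gave 2 to 3 promoter members, with the lowest without replicate 2, and 6 summits in place of 8. The share of all protein-coding genes also fell under each of these rules: it was 9.91% at 200 bp, 9.04% with the TSS inside the interval, 8.28% in the stronger peaks, 11.2% by nearest TSS and 9.42% to 10.9% with 1 replicate left out, against 14.8%. A replicate left out still shaped the summits and signals of the IDR list, so these values understate the spread. The 8 summits were 5 in the stronger peaks, and the 5 matched in all replicates were 8 when any relaxed peak could match. Reciprocal overlap of 50% and match distances of 100 and 400 bp gave 5 matched summits each. No paired analysis was possible because the study has 1 group. Depth is unknown, so a member without a summit is not detected in these lists and is not shown to be unbound.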
